A study of Mus musculus with 18 samples.

Results

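The sperm tail beats because of the axoneme, a ring of microtubule doublets around a central pair. Outer and inner dynein arms are motors that walk between neighbouring doublets, radial spokes carry signals from the central pair to the inner arms, and the nexin-dynein regulatory complex links the doublets. Tektins are filaments inside the doublet wall, and assembly factors build the dynein arms in the cytoplasm before they reach the tail. In the testis these genes are transcribed mainly in late meiotic cells and spermatids. They were taken here as the table's genes whose symbol begins with Dnah, Dnai, Dnaic, Dnal, Dnaaf, Drc, Rsph or Tekt followed by a number, which gave 38 of 20985 genes. Of these, 34 had at least 1 FPKM in at least 3 of 18 libraries and were tested. FPKM, fragments scaled to transcript length and library size, allows levels to be compared between genes.

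Whole testis was taken at 10 weeks of age from ICR mice, which are outbred, and each of 6 groups has 3 libraries. The STZ + AOS group received streptozotocin (STZ), a compound toxic to pancreatic beta cells, and alginate oligosaccharide (AOS), short sugar chains from brown algae, at 10 mg/kg. The AOS-transplant group, labelled STZ+AOS10mg/kg-FMT, and the control-transplant group, labelled STZ+control-FMT, received STZ and what is read here as a faecal microbiota transplant from AOS-dosed or from control donors. The STZ group received STZ alone, the AOS group AOS alone at 10 mg/kg, and the control group is described by its name only. The series asks what the transplants do to a testis damaged by STZ. No label says that libraries within a group are from different animals, so a p-value here covers only the spread among these libraries.

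Sums over the table ran from 561038 to 622169 FPKM per library, and the number of reads per library is unknown. Defining markers of spermatids were present at high level in every library, with summed levels of at least 1924 FPKM for round and 28984 FPKM for elongating spermatids. In 3 libraries genes of the epididymis, the duct beside the testis, stood apart. Crisp1, a secreted epididymal protein gene, was at 255.65 and 33.64 FPKM in replicates 2 and 3 of the control-transplant group and at 158.77 FPKM in control replicate 3, and at 13.04 FPKM or less in the other 15 libraries. The counts of genes called in STZ against control and in control-transplant against STZ are also given without each of these libraries that they use.

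The promoters of 34 of the 38 genes were found in RefSeq (GRCm38.p6), as 38 windows running from 250 bases before to 50 after the start. They were searched on both strands for GTTGCCA, a half-site of the X-box bound by RFX factors, which are regulators of cilium genes. It was found in 5 of the 38 windows, those of Dnaaf2, Dnah10, Dnah7b, Drc1 and Tekt1, and in 4.38% of all 32851 promoters of the same length. Only these exact letters were counted, so a window without them may still hold similar ones. The windows of Dnah7a, Dnah7b and Dnah7c each hold gttgcttagcaac, which begins with GTTGC on either strand and was not counted. The window of Dnah6 holds the same letters on the other strand, as gttgctaagcaac. Similar uncounted letters lie in windows of Dnaic2 (gttgctaggcaac), Tekt4 (gttgctcagcaac), Tekt2 and Rsph3b (both gttgctcggcaac). Windows were not searched for this form, so more may hold it. How often such variants occur over all promoters was not computed. In Dnaaf2, Drc1, Tekt1 and Dnah10 the first base of the counted half-site lay 10, 12 and 15 bases before and 10 bases after the RefSeq start. In Dnah7b it lay 163 bases before the start. TGACGTCA, a CRE site, was in 1 window (Dnah6; 1.79% of all promoters) and GTAAACA, a forkhead site, in 2 windows (Dnah17 and Tekt3; 3.65%). No window held more than 1 of the 3 motifs. The X-box half-site windows are shown because they hold the motif that most of the searched genes with a match share. They are written on the gene's strand, with the half-site, in either orientation, in capitals. These are matches of letters, not sites of binding. Their positions are chr12:69198403-69198469 (minus strand) for Dnaaf2, chr5:124725065-124725131 (plus) for Dnah10, chr1:46066660-46066726 (plus) for Dnah7b, chr5:30281351-30281417 (plus) for Drc1 and chr11:72361861-72361927 (minus) for Tekt1.
Dnaaf2: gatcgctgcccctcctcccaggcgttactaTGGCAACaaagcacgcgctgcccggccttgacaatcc
Dnah10: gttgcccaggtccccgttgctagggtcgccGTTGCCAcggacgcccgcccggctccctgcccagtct
Dnah7b: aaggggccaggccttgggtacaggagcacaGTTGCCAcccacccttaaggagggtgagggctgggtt
Drc1: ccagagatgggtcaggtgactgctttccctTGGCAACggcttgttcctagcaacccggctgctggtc
Tekt1: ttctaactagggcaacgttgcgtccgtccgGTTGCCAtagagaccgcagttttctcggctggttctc

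Levels spanned more than 3 orders of magnitude and followed the known division between sperm and cilium forms. Among the 5 outer arm heavy chains, the large motor subunits, Dnah8 averaged 231.1 FPKM over the 18 libraries (136.22 to 268.56) and Dnah17 averaged 37.36 FPKM (31.42 to 40.6). Both are known as the outer arm heavy chains of sperm. Dnah5, Dnah9 and Dnah11, those of airway and other motile cilia, averaged 0.306, 0.841 and 0.679 FPKM and did not pass the low-value filter. Among the spoke head genes, Rsph6a of sperm averaged 114.3 FPKM and its cilium counterpart Rsph4a 0.127 FPKM, which also did not pass. The 10 inner arm heavy chains lay close together, from 7.73 FPKM (Dnah10) to 18.14 FPKM (Dnah2).

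**Figure D1:**
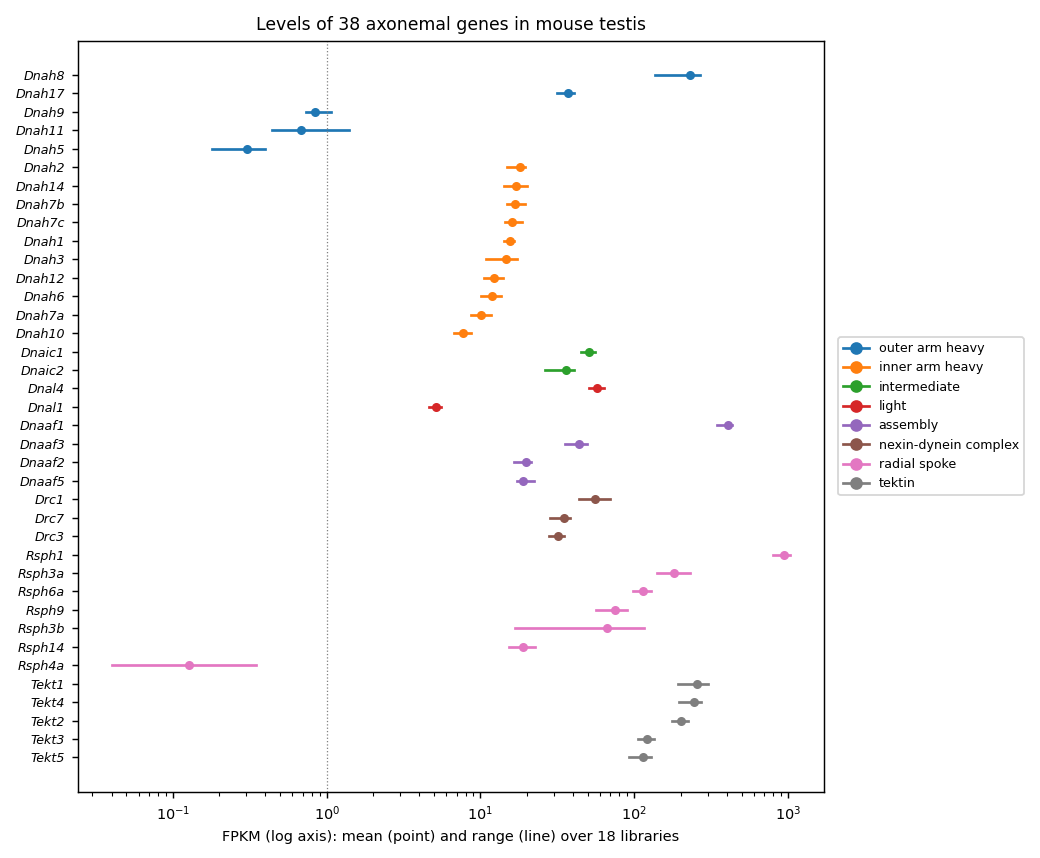
Mean (point) and range (line) in FPKM, on a log axis, of the 38 genes over 18 libraries, coloured by role; the dotted line is the filter level of 1 FPKM. Rsph1 is highest at 945 FPKM, and Dnah5, Dnah9, Dnah11 and Rsph4a have means left of the dotted line.

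Of the remaining roles, the intermediate chains Dnaic1 and Dnaic2, which anchor the arm on the doublet, averaged 50.48 and 35.8 FPKM, and the light chains Dnal4 and Dnal1 57.39 and 5.17 FPKM. The nexin-dynein genes ran from 31.7 FPKM (Drc3) to 55.9 FPKM (Drc1), and the assembly factors from 19 FPKM (Dnaaf5) to 404.5 FPKM (Dnaaf1). The tektins ran from 114 FPKM (Tekt5) to 255.1 FPKM (Tekt1), and Rsph1, a spoke head gene, was highest of all at 945 FPKM. These orders rest on the authors' gene lengths, from an annotation that no source used here names.

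The 4 cilium-type genes stayed low in every group. Dnah5 was between 0.18 and 0.4 FPKM, and Dnah9 between 0.74 and 1.06 FPKM. Control-transplant replicate 3 had the highest Dnah11 (1.4 FPKM, against 0.44 to 0.88 FPKM in the other 17 libraries) and the highest Rsph4a (0.35 FPKM, against 0.04 to 0.26 FPKM). The same library had the highest levels of the epididymal genes Lcn8 (70.21 FPKM), Lcn9 (76.7 FPKM), Defb41 (82.69 FPKM) and Adam7 (39.61 FPKM); their part in the 2 high values was not tested. Of the multiciliated cell genes, Mcidas, a switch for making many cilia, was at 0 FPKM there (0 to 0.12 FPKM over 18 libraries). Sntn was at 0.47 FPKM in that library, exceeded only by 0.64 FPKM in control-transplant replicate 1. Tmem212 was at 0.35 FPKM in it, within a range of 0 to 1.02 FPKM.

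Streptozotocin was compared with control first. Of the inner arm heavy chains 8 of 10 were lower in STZ testes, as were the nexin-dynein genes Drc7 and Drc3, the assembly factors Dnaaf1 and Dnaaf2, Rsph6a and Tekt4, each by 0.30 or less on the log2(FPKM + 1) scale. Of the 34 genes tested, 14 fell and 0 rose (limma, Benjamini-Hochberg adjusted p under 0.05 over all genes), while over all 14164 genes 12% fell and 43.2% rose. The median log2 fold change of the 34 was −0.16, against 0.17 for all genes, a difference of −0.33, and 31 of 34 were negative. In 18 of the 34 the STZ and control libraries did not overlap, all 18 lower in STZ, and this held for 11.5% of all genes in that direction and 42.1% in the other. Since this is whole testis, fewer cells of a type and less RNA per cell cannot be told apart.

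How many of these genes fell depends on the scaling. Centring each library on its median gave 32 lower and 0 higher, correction for transcript length and GC content 32 and 0, and quantile normalization 19 and 0. Over all genes tested, 43.2%, 34.1% and 28.9% were lower under these scalings, and 18.9%, 25.1% and 22.3% higher. These scalings move the median of all genes to −0.17, −0.06 and −0.06, and the median of the 34 genes to −0.50, −0.42 and −0.28. They also move the split of all calls. Lower genes made up 21.8% of calls on the deposited values, 56.5% with quantiles equalised, 57.5% once length and GC were corrected for, and 69.6% when medians were centred. A fit of the 6 STZ and control libraries alone gave 3 genes lower, Dnah12, Dnah14 and Drc7. Drc7 and Dnah12 passed in all 15 alternatives. Without STZ replicates 1, 2 and 3 in turn the count was 19, 13 and 6. Without control replicate 1 it was 8, and without control replicate 2 it was 6. Without control replicate 3, which held Crisp1, it was 10. Shares over all genes were not computed for these smaller fits.

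Of the inner arm heavy chains, 8 of 10 fell, with a median of −0.20. That count rested on single libraries: it was 4 without STZ replicate 2, 2 without STZ replicate 3, 4 without control replicate 1 and 2 without control replicate 2. The difference between roles was not tested. Dnah12 was at 10.96, 11.35 and 10.55 FPKM in STZ testes and at 13.22, 13.78 and 12.53 FPKM in control testes, without overlap (log2 fold change −0.25, SE 0.07, adjusted p = 0.008). Dnah10, a heavy chain of the inner arm type that holds a pair of heavy chains, was at 7.43, 6.77 and 6.74 FPKM in STZ and at 8.4, 8.3 and 7.57 FPKM in control (−0.19, SE 0.06, adjusted p = 0.014). These libraries did not overlap, but STZ replicate 1 and control replicate 3 nearly met. Dnah3, a single-headed inner arm heavy chain, was at 13.3, 15.96 and 10.9 FPKM in STZ and at 16.7, 15.7 and 17.41 FPKM in control (−0.30, SE 0.09, adjusted p = 0.011). Here STZ replicate 2 lay above control replicate 2, so the groups overlapped. Dnah2, with the highest level of the role, was at 17.69, 14.85 and 18.01 FPKM in STZ and at 18.93, 19.38 and 18.47 FPKM in control (−0.16, SE 0.06, adjusted p = 0.04), without overlap, and most of its difference lay in STZ replicate 2. Dnah1, whose loss in men gives malformed sperm tails, fell by 0.13, and Dnah14 fell by 0.21. Dnah6 (−0.12) was not called.

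The Dnah7 copies Dnah7a, Dnah7b and Dnah7c lie on chromosome 1, and their transcripts are 96.9% to 97.3% identical, so reads can be split between them wrongly and their separate values are uncertain. Dnah7b was at 16.51, 16.2 and 15 FPKM in STZ and at 17.92, 19.46 and 18.26 FPKM in control (−0.21, SE 0.07, adjusted p = 0.013). Dnah7a was at 10.02, 8.8 and 8.64 FPKM in STZ and at 10.12, 11.68 and 11.1 FPKM in control (−0.24, SE 0.08, adjusted p = 0.024). Neither overlapped, whereas Dnah7c, at 15.74, 15.44 and 15.19 FPKM in STZ and 15.03, 16.41 and 16.38 FPKM in control, did and was not called (−0.04, adjusted p = 0.63).

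**Figure D2:**
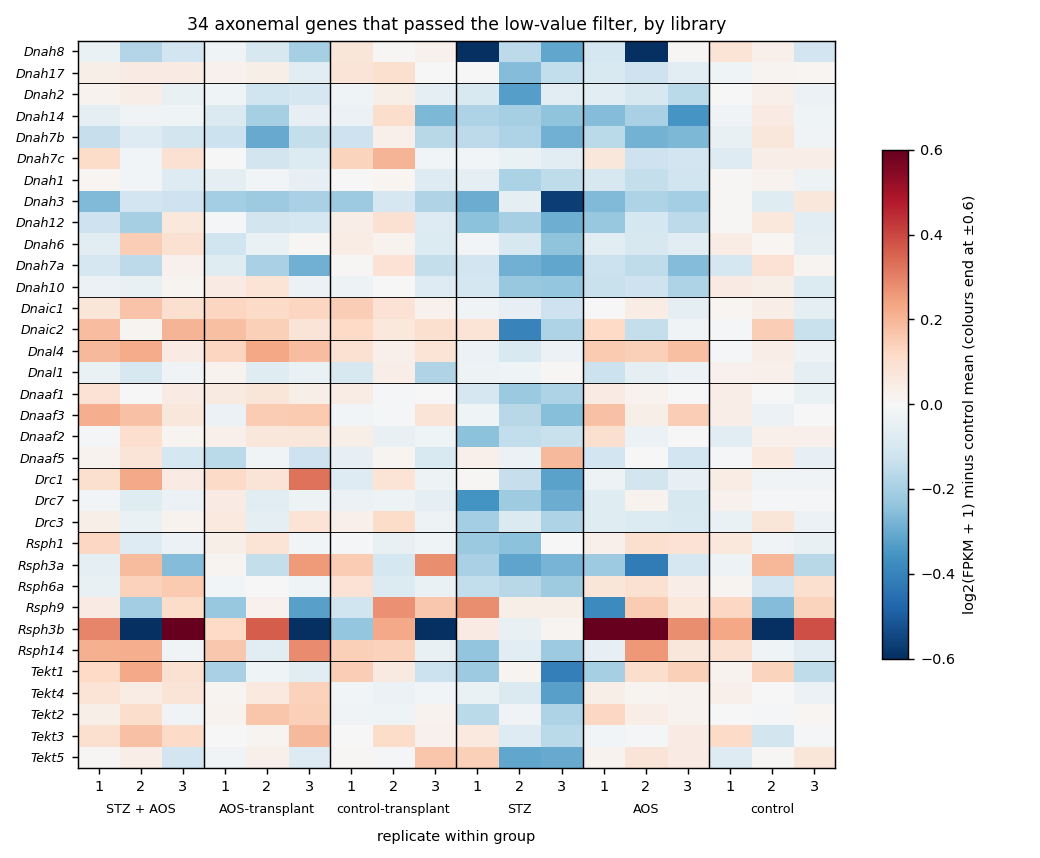
Each row is a gene, each column a library, and the colour is log2(FPKM + 1) minus the control mean, with colours ending at ±0.6; black lines part the groups and the roles. Most cells of the STZ columns are blue, the lowest being Dnah8 in STZ replicate 1 at −0.82, and Rsph3b has the widest spread, with −1.83 in control-transplant replicate 3 and 0.90 in AOS replicate 2.

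Heavy chain transcripts are very long, and 12 of the 34 genes have transcripts over 12 kb. Among the 124 other genes of that length, 15.3% fell and 40.3% rose in STZ, with a median of 0.10. This split by length was added after the values were seen.

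Neither outer arm heavy chain passed the test. Dnah8 (ENSMUSG00000033826, chr17:30624354-30877365 in GRCm38) was at 143.31, 227.69 and 204.43 FPKM in STZ and at 268.56, 259.46 and 234.7 FPKM in control. The groups did not overlap, but STZ replicate 1 stood far below the other STZ libraries, and the fold change of −0.43 (SE 0.18, adjusted p = 0.059) was −0.23 (adjusted p = 0.27) without it and −0.57 (adjusted p = 0.029) without STZ replicate 2. A second low value, 136.22 FPKM, came from AOS replicate 2. Dnah17 was at 37.89, 31.42 and 34.04 FPKM in STZ and at 37.16, 38.33 and 38.14 FPKM in control (−0.14, adjusted p = 0.051), and its groups overlapped.

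No small subunit passed the test. The intermediate chain gene Dnaic1 was at 48.17, 47.26 and 44.82 FPKM in STZ and at 49.34, 50.27 and 47.1 FPKM in control, overlapping (−0.06, adjusted p = 0.26). Dnaic2 was not called (−0.17). The light chain gene Dnal4 was at 52.56, 50.62 and 52.6 FPKM in STZ and at 53.52, 55.4 and 52.84 FPKM in control, just without overlap (−0.05, adjusted p = 0.35). The other light chain gene, Dnal1 (−0.02), was not called either.

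Of the assembly factors, 2 of 4 fell. Dnaaf1, a leucine-rich repeat protein gene needed for dynein arm assembly, was at 377.95, 347.17 and 356.27 FPKM in STZ and at 416.28, 405.6 and 394.58 FPKM in control (−0.17, SE 0.04, adjusted p = 0.0039). Dnaaf2, which works with chaperones to fold heavy chains, was at 16.59, 17.85 and 18.06 FPKM in STZ and at 19.01, 20.32 and 20.37 FPKM in control (−0.18, SE 0.05, adjusted p = 0.01). Both were lower in each STZ library than in each control library. Dnaaf3 (−0.15) and Dnaaf5 (0.06) were not called.

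Drc7, a linker subunit of the nexin-dynein complex needed for normal sperm tails, had the smallest p of the 34 genes. Drc7 (ENSMUSG00000031786, chr8:95055103-95078141, plus strand) was at 28.44, 31.53 and 29.68 FPKM in STZ and at 37.41, 36.43 and 36.42 FPKM in control, a gap of more than the spread in either group (−0.29, SE 0.05, adjusted p = 0.00013). Drc3 was at 27.94, 30.38 and 28.29 FPKM in STZ and at 31.45, 34.07 and 31.52 FPKM in control, also without overlap (−0.16, SE 0.05, adjusted p = 0.02). Drc1, a core subunit, was at 55.4, 49.97 and 43.91 FPKM in STZ and at 56.89, 54.33 and 54.26 FPKM in control, where STZ replicate 1 reached the control range (−0.15, adjusted p = 0.12).

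Of 6 radial spoke genes tested, Rsph6a fell: it was at 103.57, 101.98 and 98.75 FPKM in STZ and at 116.18, 106.01 and 122.63 FPKM in control (−0.18, SE 0.06, adjusted p = 0.024). Those groups did not overlap. Rsph1 was at 815.02, 801.97 and 948.62 FPKM in STZ and at 995.2, 937.87 and 923.07 FPKM in control, overlapping through STZ replicate 3 (−0.16, adjusted p = 0.055). Rsph9, another spoke head gene, was not called (0.12), nor were Rsph14 (−0.17), Rsph3a (−0.26) and Rsph3b (0.01). Of 5 tektins, Tekt4 fell by 0.15 (adjusted p = 0.04); it passed in 9 of 15 alternatives. Tekt1 was at 220.64, 259.48 and 193.31 FPKM in STZ and at 260.99, 281.63 and 230.77 FPKM in control, with much overlap (−0.20, adjusted p = 0.13). Tekt2 (−0.12), Tekt3 (−0.06) and Tekt5 (−0.16) were not called.

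**Figure D3:**
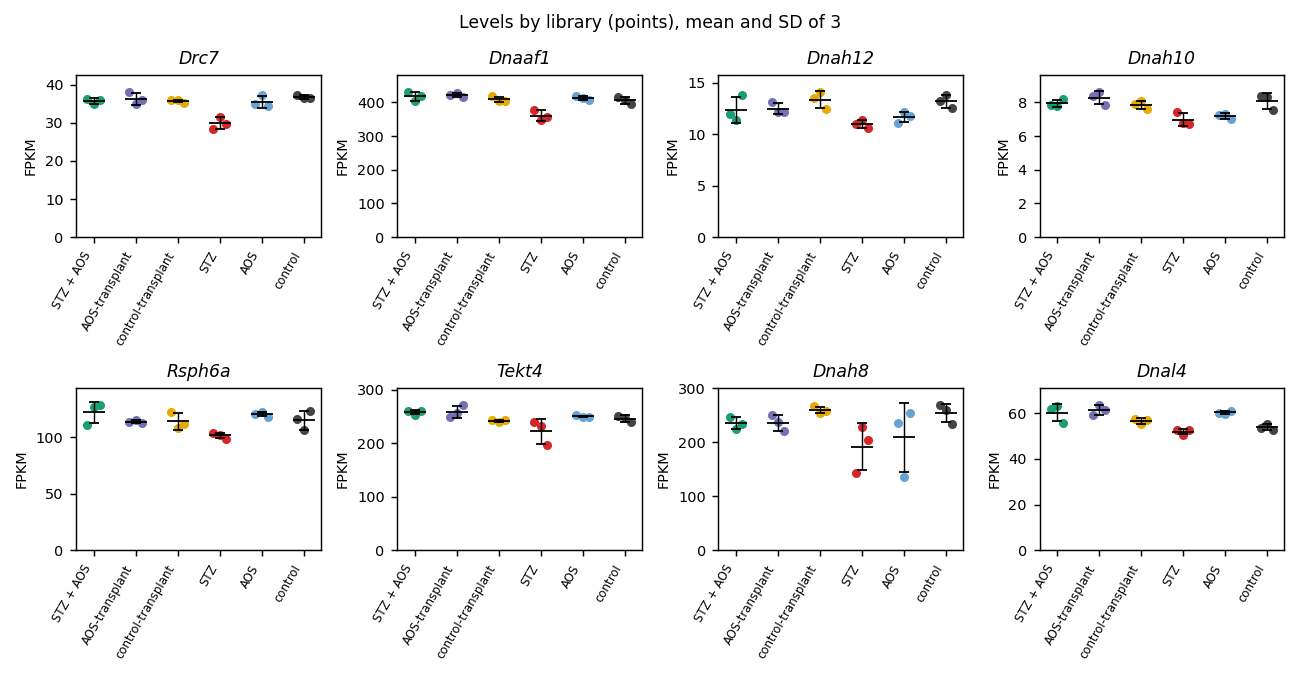
FPKM in each library (points) with the mean and SD of 3, for Drc7, Dnaaf1, Dnah12, Dnah10, Rsph6a, Tekt4, Dnah8 and Dnal4, on axes that start at 0. Drc7 is near 30 FPKM in the STZ libraries, at 28.44 to 31.53, and at 34.34 or more elsewhere, and Dnah8 has 2 low points, 143.31 in STZ and 136.22 in AOS.

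Rsph3a and Rsph3b, copies of a spoke stalk gene on chromosome 17 (Rsph3a at 7945614 to 7979824, plus strand; Rsph3b at 6904413 to 6948682, minus strand), varied in opposite directions. Their transcripts are 99.2% identical over 1823 bases, so the split of reads between them is uncertain. Rsph3b was at 16.67 FPKM in control-transplant replicate 3, 34.16 in STZ + AOS replicate 2, 38.14 in AOS-transplant replicate 3 and 39.88 in control replicate 2, and these 4 libraries held the 4 highest Rsph3a values, 228.93, 215.74, 225.63 and 216.51 FPKM. At the other end, AOS replicate 2 had 115.93 FPKM of Rsph3b and 140.76 FPKM of Rsph3a, the lowest Rsph3a of all. Rsph3b thus made up 6.79% to 45.2% of the pair's sum, while the sum itself was 245.6 to 263.8 FPKM in the 15 libraries outside the STZ group. In the STZ libraries the sum was 211.3 to 228.8 FPKM, below all others, with Rsph3b at 27.9% to 28.7% of it. Over all 18 libraries the log2 levels of the copies correlated at r = −0.82 (permutation p = 0.00001, the smallest that 100000 resamples can give) and rho = −0.67 (permutation p = 0.003), and at r = −0.77 without the 2 libraries farthest from the median (permutation p = 0.00046). With each group's mean removed r was −0.88. The STZ libraries lay apart from the others, and across the 15 other libraries the log2 levels of the copies correlated at r = −0.91 and rho = −0.96 (permutation p = 0.00001 for each), and at r = −0.96 without the 2 farthest (permutation p = 0.00001). No other pair of genes was correlated across samples. This pair and the set of 15 libraries were chosen after the values were seen, and the p-values do not allow for that choice. Where a sum is nearly constant, 1 copy must fall as the other rises. The correlation therefore cannot show whether the genes are regulated in opposite directions.

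**Figure D4:**
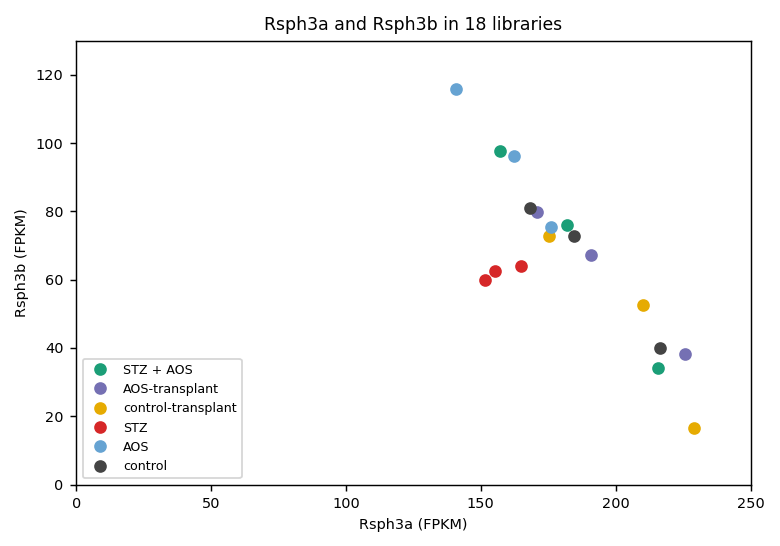
Rsph3b against Rsph3a in FPKM, 1 point per library, coloured by group. The 15 libraries outside the STZ group lie along a falling line, and the 3 STZ points lie to the left of it and below.

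The other axoneme genes, from lists that leave out the 38, showed the same direction in STZ for most structures. The counts below stand beside 12% of all genes lower and 43.2% higher. Of other arm subunits, 4 of 6 fell and 0 rose (median −0.23), including Wdr78, an inner arm intermediate chain gene (−0.34, adjusted p = 0.00062), and Ccdc63 (−0.22, adjusted p = 0.0015). Of docking genes, which fix outer arms to the doublet, 3 of 6 fell and 0 rose (−0.14), among them Efcab1 (−0.56, adjusted p = 0.0047) and Ttc25 (−0.13, adjusted p = 0.0088). Of nexin and ruler genes, 6 of 9 fell and 0 rose (−0.18), with Tcte1 at −0.29 and Ccdc65 at −0.18. Of other spoke genes, 7 of 9 fell and 0 rose (−0.20), with Cfap206 at −0.24 and Nme5 at −0.31. Of central pair genes, 11 of 15 fell and 0 rose (−0.20), with Spag6l at −0.33 and the giant central pair gene Hydin at −0.24. Of genes for proteins inside the doublet, 7 of 16 fell and 0 rose (−0.17), with Mns1 at −0.20 and Ribc2 at −0.21.

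Other assembly factors were mixed, with 4 of 12 lower and 1 higher (−0.10): Spag1 fell by 0.22, and Ruvbl1, a chaperone ATPase used by many complexes, rose by 0.33. Of intraflagellar transport genes, which carry cargo along a growing axoneme, 5 of 21 fell and 1 rose (−0.11); Ift172 fell by 0.27 and Ift74 by 0.38. Of genes of cytoplasmic dynein, the motor of cell transport rather than of beating, 1 of 14 fell and 4 rose, with a median of 0.05 that lay below the 0.17 of all genes, of which 12% fell and 43.2% rose. Its Dynlrb1 rose by 0.96 and Dync1i1 by 0.87. Of regulators of these genes, 6 of 10 fell and 1 rose (−0.19); Rfx2, a factor that binds the X-box in spermatids, was at 134.15, 114.45 and 120.59 FPKM in STZ and at 146.51, 142.18 and 144.89 FPKM in control (−0.23, adjusted p = 0.00077), and Taf7l rose by 0.38.

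Markers of spermatids fell in STZ as these genes did, while those of several other testis cells rose. Over all genes 12% fell and 43.2% rose. Of round spermatid genes, 12 of 15 fell and 0 rose (median −0.22), and their summed level was 1924 to 2367 FPKM in STZ and 2531 to 2614 FPKM in control. Of elongating spermatid genes, 15 of 16 fell and 0 rose (−0.55), with sums of 28984 to 52287 FPKM in STZ and 57032 to 63720 FPKM in control. Of meiotic genes, 1 of 12 fell and 1 rose (−0.03; 830.3 to 993.4 FPKM in STZ and 936.5 to 984.5 FPKM in control). Spermatogonial genes rose in 6 of 8 (0.61; 320 to 328.8 FPKM in STZ, 279.4 to 294.4 FPKM in control), Sertoli genes in 14 of 14 (1.31; 2203 to 2819 FPKM in STZ, 893.8 to 995.2 FPKM in control), macrophage genes in 8 of 9 (1.49; 169.2 to 340.8 FPKM in STZ, 68.29 to 69.15 FPKM in control) and endothelial genes in 5 of 6 (0.58; 11.3 to 16.3 FPKM in STZ, 6.96 to 8.72 FPKM in control), with 0 lower in each. Leydig genes passed in neither direction in 8 tested (−0.01; 1789 to 12806 FPKM in STZ, 3542 to 4057 FPKM in control). No gene of these lists was at 0 in every library, and their part in the lower axonemal levels was not tested.

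Markers of ciliated and epididymal duct, other tissues with axonemes or next to the testis, were checked likewise. Of multiciliated cell genes 6 of 11 passed the filter, 2 fell and 1 rose (median −0.00; 405.3 to 462.2 FPKM in STZ, 492.3 to 493.5 FPKM in control); those at high level, such as Deup1 and Fam183b, are also expressed in the testis, and Mcidas, Sntn, Tmem212 and Trp73 averaged 0.0344, 0.128, 0.29 and 0.0789 FPKM over the 18 libraries. Of epididymal genes 4 of 8 passed and 0 were called (−0.51; 3.51 to 19.06 FPKM in STZ, 1.06 to 216.1 FPKM in control).

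In each of the 3 treated STZ groups, 16 to 19 of the 34 axonemal genes were higher than in STZ alone. These comparisons share the STZ libraries with each other and with the comparison against control, so a low value in STZ appears in each of them. STZ + AOS against STZ gave 19 of 34 genes higher and 0 lower (11.9% of all genes rose, 43.1% fell; median 0.17, all genes −0.17). AOS-transplant against STZ gave 16 higher and 1 lower (12% and 44.5% of all genes; median 0.17, all genes −0.18). Control-transplant against STZ gave 16 higher and 0 lower (11.4% and 39.9%; median 0.15, all genes −0.15). The fit of only the groups compared gave 6, 5 and 3 genes higher, and median centring gave 32 in each. Shares over all genes were not computed for these settings.

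Drc7 and Dnaaf1 had the smallest p in each of the 3. Drc7 was at 36.28, 34.85 and 35.89 FPKM in STZ + AOS, 38.1, 34.98 and 35.91 FPKM in AOS-transplant and 35.86, 36.01 and 35.32 FPKM in control-transplant testes, against 28.44, 31.53 and 29.68 FPKM in STZ testes. No treated library reached the STZ range, and the fold changes were 0.25, 0.27 and 0.25 (adjusted p = 0.0005, 0.0002 and 0.00056). Dnaaf1 was at 430.71, 404.42 and 419.47 FPKM in STZ + AOS, 421.4, 426.99 and 415.76 FPKM in AOS-transplant and 418.48, 402.86 and 404.71 FPKM in control-transplant testes, against 377.95, 347.17 and 356.27 FPKM in STZ testes (0.21, 0.23 and 0.18, adjusted p = 0.00072, 0.00044 and 0.0028). Again no treated library overlapped STZ.

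**Figure D5:**
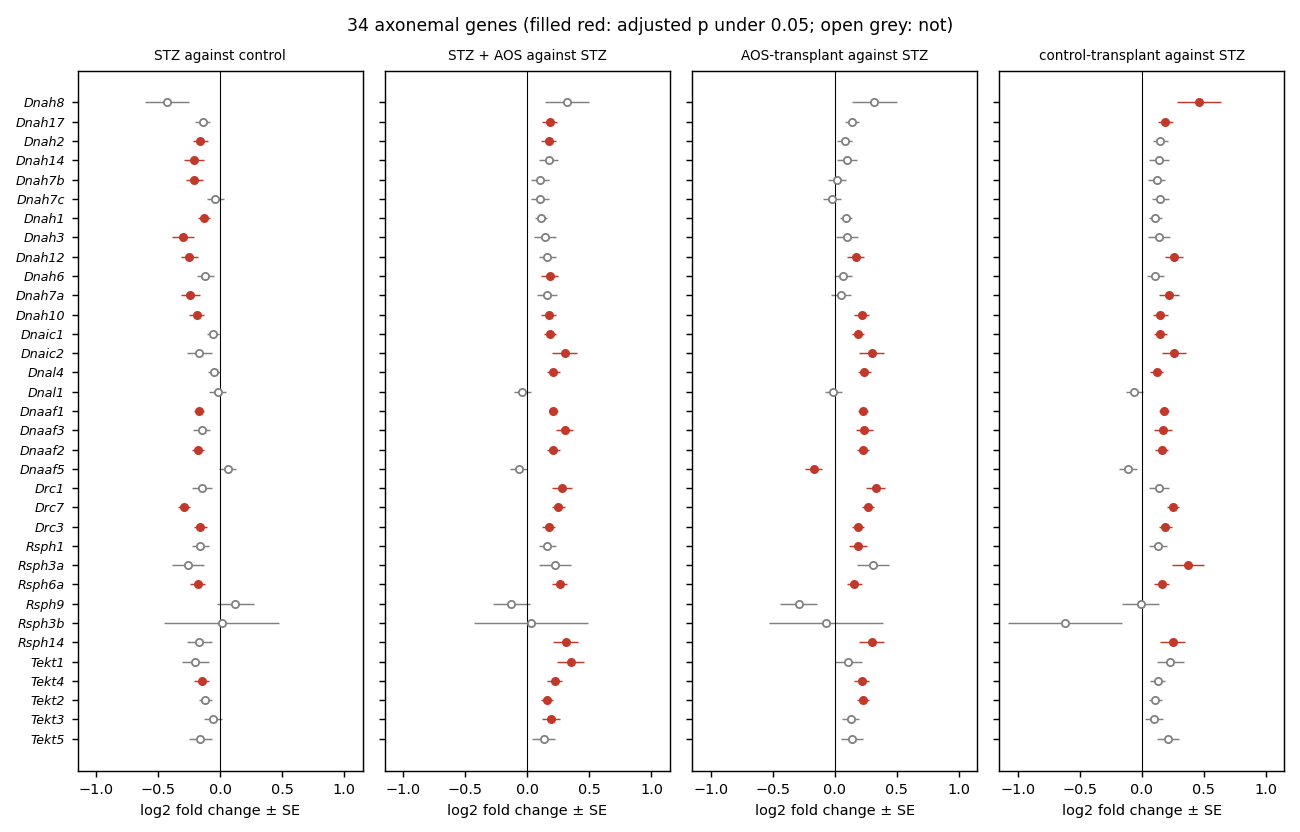
Log2 fold changes on the log2(FPKM + 1) scale with SE for the 34 genes tested, in 4 comparisons; filled red points passed the test. Points lie mostly left of 0 for STZ against control (31 of 34) and mostly right of 0 in the 3 comparisons against STZ, which share its libraries.

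By role, the treated groups differed in which genes passed. Intermediate chains rose in 2 of 2 in each group. Nexin-dynein genes rose in 3 of 3 (STZ + AOS), 3 of 3 (AOS-transplant) and 2 of 3 (control-transplant), and assembly factors in 3 of 4 in each. Inner arm heavy chains, of which 8 of 10 fell in STZ, rose in 3 of 10, 2 of 10 and 3 of 10. Tektins rose in 4 of 5, 2 of 5 and 0 of 5, and the medians of the 5 were 0.19, 0.14 and 0.13. The other axoneme genes gave similar counts. In STZ + AOS, AOS-transplant and control-transplant testes against STZ, other spoke genes rose in 6, 7 and 7 of 9 (medians 0.21, 0.21 and 0.23), central pair genes in 10, 11 and 9 of 15 (0.19, 0.18 and 0.19) and doublet genes in 11, 11 and 6 of 16 (0.20, 0.20 and 0.13), with 0 lower. Docking genes rose in 5, 5 and 4 of 6 and nexin and ruler genes in 7, 5 and 4 of 9, with 0 lower. Cytoplasmic dynein genes fell in 4, 5 and 4 of 14 and rose in 0, 2 and 0. Over all genes 43.1%, 44.5% and 39.9% fell and 11.9%, 12% and 11.4% rose in these comparisons. A gene past the threshold in 1 group and not in another is not shown to differ between them.

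Among the genes higher in STZ + AOS than in STZ, the light chain gene Dnal4 was at 61.74, 63.06 and 55.88 FPKM, against 52.56, 50.62 and 52.6 FPKM in STZ (0.21, SE 0.05, adjusted p = 0.0017). It was at 59.12, 63.47 and 61.4 FPKM in AOS-transplant testes (0.24 over STZ, adjusted p = 0.00062). Dnaaf3 was at 49.38, 47.91 and 44.39 FPKM in STZ + AOS, against 41.55, 37.61 and 35.36 FPKM in STZ (0.30, SE 0.07, adjusted p = 0.0016), and Rsph6a at 111.06, 126.36 and 128.08 FPKM in STZ + AOS, against 103.57, 101.98 and 98.75 FPKM in STZ (0.26, SE 0.06, adjusted p = 0.0025). None of these overlapped. Without STZ replicate 3 the count for STZ + AOS was 11.

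In AOS-transplant testes, Dnaaf2 was at 20.33, 20.93 and 20.89 FPKM, against 16.59, 17.85 and 18.06 FPKM in STZ (0.23, adjusted p = 0.0016). Tekt2 was at 202.19, 224.15 and 220.15 FPKM, against 178.41, 196.6 and 175.46 FPKM in STZ (0.23, SE 0.05, adjusted p = 0.0018). The groups did not overlap in either gene. The 1 lower gene was Dnaaf5, at 17.2, 19.02 and 17.67 FPKM, against 19.78, 18.85 and 22.3 FPKM in STZ (−0.17, adjusted p = 0.047). It was named after its values were seen. The groups overlapped, the call was lost without STZ replicate 3, AOS-transplant replicate 1 or AOS-transplant replicate 3, and it turned positive after median centring (0.20), the length and GC correction (0.15) and quantile normalization (0.06).

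In control-transplant testes, Dnah12 was at 13.55, 14.09 and 12.41 FPKM, against 10.96, 11.35 and 10.55 FPKM in STZ (0.26, SE 0.07, adjusted p = 0.0059). Drc3 was at 32.99, 34.94 and 31.59 FPKM, against 27.94, 30.38 and 28.29 FPKM in STZ (0.19, adjusted p = 0.0071), and neither gene overlapped. Dnah17 was at 40.05, 40.6 and 37.76 FPKM, against 37.89, 31.42 and 34.04 FPKM in STZ (0.19, adjusted p = 0.0096), and these overlapped through STZ replicate 1. Dnah8 was at 266.91, 255.01 and 258.42 FPKM, with 143.31, 227.69 and 204.43 FPKM in STZ (0.46, adjusted p = 0.046), without overlap; the fold change was 0.27 (adjusted p = 0.21) without STZ replicate 1, and of the 6 libraries only STZ replicate 2 could be left out with the call kept (0.60, adjusted p = 0.025). The count of 16 was 10 without control-transplant replicate 2 and 13 without replicate 3, the libraries with epididymal genes. It was 5 without control-transplant replicate 1 and 8 without STZ replicate 3.

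No difference between the AOS-transplant and control-transplant groups passed the test. None of the 34 was called, as for 0% of all genes; 4 of the 34 and 866 of all 14164 had an unadjusted p under 0.05, and no second tool was run. Dnah7c was at 15.95, 14.69 and 15.01 FPKM in AOS-transplant and at 17.6, 18.52 and 15.74 FPKM in control-transplant testes, overlapping (−0.17, adjusted p = 0.8). Dnal4 was at 59.12, 63.47 and 61.4 FPKM in AOS-transplant and at 57.59, 55.17 and 57.03 FPKM in control-transplant testes, not overlapping (0.11, adjusted p = 0.8). The median over the 34 genes was −0.00, with a range from −0.28 (Rsph9) to 0.54 (Rsph3b).

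Against control, no axonemal gene was called in any treated STZ group, with the control libraries shared by these comparisons. STZ + AOS against control called 0 of 34 (0.0424% of all genes; 3 at an unadjusted p under 0.05), with a median of 0.02. Dnal4 was at 61.74, 63.06 and 55.88 FPKM in STZ + AOS and at 53.52, 55.4 and 52.84 FPKM in control (0.16, adjusted p = 0.36), without overlap. Dnaic1 was at 51.44, 55.23 and 52.37 FPKM in STZ + AOS and at 49.34, 50.27 and 47.1 FPKM in control (0.11, adjusted p = 0.56), without overlap as well. AOS-transplant against control called 0 of 34 (0% of all genes; 6 at an unadjusted p under 0.05), with a median of −0.01; Dnal4 (0.18, adjusted p = 0.52) and Dnah7b, at 16.85, 14.84 and 16.71 FPKM in AOS-transplant and 17.92, 19.46 and 18.26 FPKM in control (−0.19, adjusted p = 0.62), had the smallest p. Control-transplant against control called 0 of 34 (0% of all genes; 0 at an unadjusted p under 0.05), with a median of −0.01. Dnaic1 was at 54.21, 52.03 and 49.79 FPKM in control-transplant testes (0.09, adjusted p = 0.85), and Dnah3 at 14.1, 15.41 and 14.52 FPKM, against 16.7, 15.7 and 17.41 FPKM in control (−0.17, adjusted p = 0.86). A p that misses the threshold does not show that these groups were alike.

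AOS alone was compared with control to ask what the sugar does to an undamaged testis. None of the 34 genes was called (0% of all genes), and 8 of the 34 and 1273 of all genes had an unadjusted p under 0.05. The 10 inner arm heavy chains had fold changes from −0.27 to −0.06 with a median of −0.16, and the median of all genes was −0.03. Among all 34, AOS and control libraries did not overlap in 12 genes on the lower side and 2 on the higher side (14.7% and 7.65% of all genes). Dnah7b was at 16.45, 15.05 and 15.21 FPKM in AOS and at 17.92, 19.46 and 18.26 FPKM in control (−0.24, SE 0.07, adjusted p = 0.41). Dnah14 was at 15.34, 16.06 and 14.28 FPKM in AOS and at 18.25, 19.2 and 18.18 FPKM in control (−0.27, SE 0.08, adjusted p = 0.41). Transcript length moved with this: the median of other genes ran from 0.08 for transcripts under 1 kb to −0.10 for those over 12 kb, and its part in the heavy chain values was not tested.

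The AOS effect with STZ minus the AOS effect without it was higher than 0 in 14 of 34 genes and lower in 0 (6.12% and 29.1% of all genes; median 0.22, all genes −0.16). The 14 were 8 of 10 inner arm heavy chains, 3 of 3 nexin-dynein genes, Dnah17, Dnaaf1 and Dnaic1. Of the 14, 8 were called in STZ + AOS against STZ and 0 in AOS against control. This difference of effects also holds STZ against control with its sign turned, so low values in STZ raise it. For Drc7 the difference was 0.30 (SE 0.07, adjusted p = 0.0041): it was at 36.28, 34.85 and 35.89 FPKM in STZ + AOS, against 28.44, 31.53 and 29.68 FPKM in STZ, and at 34.92, 37.31 and 34.34 FPKM in AOS, against 37.41, 36.43 and 36.42 FPKM in control. For Dnah14 it was 0.44 (SE 0.11, adjusted p = 0.0059), with 17.73, 18.23 and 18.17 FPKM in STZ + AOS, against 16.17, 16.04 and 15.53 FPKM in STZ. Its 2 effects were 0.17 with STZ (adjusted p = 0.067) and −0.27 without it, and neither was called. Dnah10 was at 7.85, 7.81 and 8.2 FPKM in STZ + AOS, 7.43, 6.77 and 6.74 FPKM in STZ, 7.27, 7.32 and 6.99 FPKM in AOS and 8.4, 8.3 and 7.57 FPKM in control (0.32, adjusted p = 0.0095). Dnah7b was at 16.77, 17.52 and 17.08 FPKM in STZ + AOS and at 16.51, 16.2 and 15 FPKM in STZ (0.34 for the difference of effects, adjusted p = 0.011). Dnah17 was at 38.8, 39.22 and 39.22 FPKM in STZ + AOS, 37.89, 31.42 and 34.04 FPKM in STZ, 35.44, 34.7 and 36.21 FPKM in AOS and 37.16, 38.33 and 38.14 FPKM in control (0.27, adjusted p = 0.016). The count was 8 without STZ replicate 3 and 9 without control replicate 2.

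Summed over the 38 genes, the axonemal level was 3576 to 3726 FPKM in STZ + AOS, 3557 to 3646 in AOS-transplant, 3514 to 3604 in control-transplant, 3152 to 3170 in STZ, 3534 to 3632 in AOS and 3461 to 3640 in control testes. The 3 STZ libraries were the lowest of the 18. Genes of high level weigh most in this sum: Rsph1 averaged 945 FPKM, and no inner arm heavy chain averaged above 18.14 FPKM. The share of the 38 genes in the table was 0.542% to 0.562% in STZ and 0.588% to 0.604% in control. It was 0.568% to 0.601% in AOS and 0.578% to 0.601% in control-transplant testes, which came closer to STZ. In AOS-transplant it was 0.587% to 0.616% and in STZ + AOS 0.606% to 0.617%. Library by library, the median of the 34 genes relative to the control mean was −0.10, −0.15 and −0.20 in STZ replicates 1, 2 and 3, where that of all genes was 0.09, 0.21 and 0.24, and it lay between −0.06 and 0.03 in every other library.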

How the data were processed

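RNA was sequenced from 18 whole testis libraries, 3 in each of 6 groups, which were taken from the treatment labels. The submitters' processing notes name Bowtie 0.12.2 and the build mm10, without a role for either; which counter, annotation and scaling were used is not given in the sources used here. In 1 deposited file the authors give a table of levels, taken here as FPKM because the lowest values of 1682 rarely detected genes fall with transcript length (rho −0.43); the header names no unit, and RPKM cannot be distinguished. Read depth is unknown, so no counting interval was computed.

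Values were tested as log2(FPKM + 1), which understates changes of low genes, with limma-trend (limma 3.58.1, R 4.3.3; two-sided) over the 14164 genes at 1 FPKM or more in at least 3 libraries. The model gave each group its own mean and took all 18 libraries. A call needed an adjusted p (Benjamini-Hochberg, over all genes tested) under 0.05. The script was checked on simulated data. Coordinates, lengths and GC contents came from GENCODE M21 (GRCm38) for 96.5% of genes and all 38 members, and transcript identity from BLAST 2.17.0. The correlation used Python 3.11.15 with scipy 1.17.1.

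Members, gene lists and tests were chosen with earlier results of these data known. Full values are given for the highest gene of each role, for the 10 smallest p in STZ against control, and for the 5 smallest p in other comparisons, or the 2 smallest where 0 were called. From each pathway list the 2 genes of smallest p are named; other genes named were chosen after their values were seen. Alternatives were other scalings, pseudocounts, filters, library sets, a replicate block and leaving out each library.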

Additional observations from a re-analysis of the deposited data

Results flagged for a closer look

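In 14 genes the AOS effect in STZ mice differed from the AOS effect in mice without STZ by a test of the difference itself (limma, adjusted p under 0.05), and in each it was higher with STZ. On the log2 scale the difference was 0.44 for Dnah14, 0.36 for Dnah3, 0.34 for Dnah7a, 0.34 for Dnah7b, 0.32 for Dnah10, 0.32 for Dnah12, 0.28 for Dnah2 and 0.23 for Dnah1 among the inner arm heavy chains. It was 0.34 for Drc1, 0.30 for Drc7 and 0.25 for Drc3 in the nexin-dynein complex. For Dnah17 it was 0.27, for Dnaaf1 0.19 and for Dnaic1 0.18. Each difference joins 2 effects. It also holds STZ against control with its sign turned, so low values in STZ raise it. All of the 14 but Dnah17, Drc1 and Dnaic1 were also called lower in STZ against control. In STZ + AOS against STZ 8 of the 14 were called and 6 were not: Dnah1 (0.11), Dnah12 (0.16), Dnah14 (0.17), Dnah3 (0.14), Dnah7a (0.16) and Dnah7b (0.10). In AOS against control 0 of the 14 were called, and those 6 genes were at −0.12, −0.16, −0.27, −0.22, −0.18 and −0.24 there.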

How the results depend on the processing

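In STZ against control the median of the 34 genes was −0.28 with quantile normalization (19 lower), −0.50 with median centring (32 lower) and −0.42 with the length and GC correction (32 lower). Of all genes, 28.9%, 43.2% and 34.1% were lower under these scalings. Median centring gave 32 genes higher in each treated group against STZ and 31 in the test of the AOS effects. The length and GC correction gave 32 (STZ + AOS), 31 (AOS-transplant), 32 (control-transplant) and 30. For these comparisons the shares over all genes under either scaling were not computed. Fits of only the groups compared gave 3 lower in STZ and 6, 5 and 3 higher in STZ + AOS, AOS-transplant and control-transplant; they have fewer samples. The 1 gene lower in AOS-transplant, Dnaaf5, gave a count of 0 of lower genes under these 4 settings and without a low-value filter; the causes were not tested.

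Leaving out each library in turn gave 6 to 19 genes lower in STZ (median −0.20 to −0.14), 11 to 22 higher in STZ + AOS, 11 to 18 higher and 0 to 1 lower in AOS-transplant, 5 to 20 higher in control-transplant, and 8 to 21 for the test of AOS effects. No member was higher in STZ, or called in the 5 comparisons with 0 calls, under any alternative.

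Genes that turned sign and passed the test on at least 1 side were these. After quantile normalization Dnal1 was at 0.37 (STZ + AOS), 0.41 (AOS-transplant) and 0.29 (control-transplant) against STZ, and in AOS-transplant Dnaaf5 was at 0.06, Dnah7c at 0.25 and Rsph1 at −0.05. After median centring Dnal1 was at 0.31, 0.35 and 0.25 and Dnaaf5 at 0.28, 0.20 and 0.21 in the same 3 comparisons, Dnah7c at 0.34 in AOS-transplant, and Dnaaf5 at −0.28 in STZ against control. After the length and GC correction Dnal1 was at 0.20, 0.26 and 0.16, Dnaaf5 at 0.27, 0.15 and 0.18, Dnah7c at 0.22 in AOS-transplant, and Dnaaf5 at −0.29 in STZ against control. In STZ against control, uncalled genes also turned: Rsph9 to −0.23 and Rsph3b to −0.34 after median centring, to −0.10 and −0.29 after the length and GC correction, and Dnaaf5 to −0.14 and Tekt3 to 0.01 after quantile normalization. Without control replicate 2 Rsph9 was at −0.01 and Rsph3b at −0.30, and without STZ replicate 1 Rsph3b was at −0.01. Of the other gene values, 255 lost and 235 gained a call, and 4792 did neither.

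Replicate numbers did not pair the samples: deviations of same-numbered libraries correlated at −0.205 to 0.201 and of others at −0.356 to 0.333. With the replicate number as a block, 14 genes were lower in STZ, and 18, 15 and 11 higher (1 lower in AOS-transplant) in STZ + AOS, AOS-transplant and control-transplant, and 13 passed the test of AOS effects. The planned count model was not run, because the values are not counts. Depth in reads is unknown, so levels near 0 carry no detection limit.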
